A study of Mus musculus with 58 samples.

Results

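Gpr183 and 8 other genes for receptors and adhesion molecules by which hematopoietic stem cells (HSCs) sense and hold on to their niche were followed through every RNA library of a mouse caloric restriction (CR) study. The members were given as a list of symbols, Gpr183, Cxcr4, S1pr1, S1pr2, Kit, Robo4, Esam, Cd44 and Selplg, and all 9 were found among the 55376 genes of the count files. The list was chosen by values of these same data, above all the lower Gpr183 of old restricted than of old ad libitum HSCs, so levels and fold changes in that contrast, and in every contrast that shares its libraries, are given here as a description with no p. Counts of members past the threshold in those 4 contrasts only stand beside the share of all genes, and nothing is read from them. The tests in young mice, in knockdown HSCs and on chromatin accessibility used other libraries than that contrast. As the list was chosen with earlier results of these data known, they are not independent tests of it.

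HSCs of male C57BL/6 mice were sorted from bone marrow as lineage-negative, Sca-1+, c-Kit+ cells lacking CD34 and Flk2 and carrying CD150, so the KIT protein was itself part of the gate. Old mice, aged 24 to 26 months, had lifelong ad libitum access to food (OAL, 4 RNA libraries), lifelong 40% CR (OCR, 4) or lifelong CR followed by 4 weeks of ad libitum refeeding (OCRRF, 2). Young mice, aged 3 to 4 months, were fed ad libitum (YAL, 4), held on short-term CR that was raised to 40% (YCR, 4) or refed for 4 weeks after it (YCRRF, 4). A second set of libraries came from HSCs of aged mice that were transduced in culture with lentiviral short hairpin RNA and then grew in lethally irradiated female recipients, from which donor HSCs were sorted by a different gate (CD48-negative, CD150+, CD45.2+). It held a Kdr knockdown marked with GFP (GFP_Kdr, 4 libraries, 1 hairpin) with its scramble (GFP_Scramble, 2), and a combined knockdown of Kdr and Bmpr1a (Double_KdrBmpr, 4 libraries, 2 with each of 2 Bmpr1a hairpins) with its scramble (Double_Scramble, 2). The study's legends count the diet libraries as mice. For the transplant libraries nothing read here stated that they came from separate recipients, so their spread may be partly technical.

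GPR183 is a G protein-coupled receptor that guides leukocytes along gradients of oxysterols, and CXCR4 is the receptor for CXCL12, the main chemokine that retains HSCs in bone marrow. S1PR1 and S1PR2 both bind sphingosine-1-phosphate, the former drawing cells towards blood and lymph and the latter commonly opposing migration. KIT binds stem cell factor on niche cells, ROBO4 and ESAM are surface proteins shared by HSCs and endothelium, CD44 binds hyaluronan, and PSGL-1, the product of Selplg, is the ligand by which leukocytes roll on selectins.

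The RNA values are in counts-per-million (CPM), that is a gene's share of the reads of its library, scaled by the trimmed mean of M values (TMM), and a fold change is given on the log2 scale with its standard error (SE). Calls came from edgeR's quasi-likelihood test over all genes tested and needed both a fold change above 1.2 and a p below 0.05 after Benjamini-Hochberg adjustment. The 22 diet libraries held 11102898 to 36579392 counted reads, the lowest being YCRRF replicate 4, and the 12 transplant libraries 35657999 to 44780217. The diet and transplant sets were prepared by different RNA extractions and scaled separately, so no level is compared across them. Old and young diet libraries also differed in background: reads on olfactory and vomeronasal receptor genes made up 529.6 to 1485.5 CPM in old and 66.5 to 474.0 CPM in young libraries, so age and this background cannot be told apart. Within the old libraries this background was 529.6 to 751.8 CPM in OAL, 560.7 to 1257.4 in OCR, and 1161.0 and 1485.5 in OCRRF. Refeeding and this background therefore cannot be told apart in OCRRF against OAL. In OCRRF against OCR both refed libraries were also above all OCR libraries except replicate 3 (1257.4 CPM), which lay between them. The part of this background in that contrast was not tested. The 9 HSC markers examined, among them Slamf1 (CD150) and Procr, were above 0 in all 34 libraries, which does not measure purity. Their sum was 1803 to 1886 CPM in OAL and 1439 to 1721 in OCR. In young mice it was 1685 to 1999 in YAL and 1479 to 1610.3 in YCR. It was 1208 to 1288 in GFP_Scramble and 971 to 1048 in GFP_Kdr, 956 to 1011 in Double_Scramble and 876 to 1114 in Double_KdrBmpr. In the diet set the sum of 8 granulocyte and monocyte markers was 412 to 530.2 CPM in OAL, 392 to 494 in OCR and 484 to 507 in OCRRF. It was 443 to 1215 in YAL, 393 to 705 in YCR and 728 to 1882 in YCRRF. In the transplant set it was 791 to 2596 in GFP_Scramble and 1209.8 to 2632 in GFP_Kdr. The double set had 1397 to 5075 in Double_Scramble and 648 to 3233 in Double_KdrBmpr. The part of these sums in member levels was not tested.

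Gpr183 lay on chr14:121952551-121965195 of GRCm38 (mm10), on the minus strand and inside the span of Ubac2, which is on the opposite strand. The strand setting of the counting is not given in the sources used here, so reads of Gpr183 and Ubac2 may be mixed where their exons overlap. The promoter of Gpr183, from 250 bases before to 50 bases after the RefSeq start (chr14:121965144-121965443, minus strand, GRCm38.p6), is shown because the RNA of this gene varied most with age and diet among the members. The promoter of Robo4 (chr9:37401722-37402021, plus strand) is shown because its RNA was also lower in OCR than in OAL. S1pr1 fell further there, but its promoter was not available. With age Robo4 and Gpr183 went in opposite directions, Robo4 being lower in OAL than in YAL. Capitals mark GAGGAA, the core letters of PU.1 sites, or its reverse complement TTCCTC.
Gpr183 promoter: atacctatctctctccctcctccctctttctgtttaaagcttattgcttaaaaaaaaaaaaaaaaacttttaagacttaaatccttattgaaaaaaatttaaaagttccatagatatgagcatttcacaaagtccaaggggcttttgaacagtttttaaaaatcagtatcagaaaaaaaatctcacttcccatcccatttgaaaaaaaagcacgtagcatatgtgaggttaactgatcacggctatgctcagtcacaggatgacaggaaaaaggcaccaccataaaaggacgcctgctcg
Robo4 promoter: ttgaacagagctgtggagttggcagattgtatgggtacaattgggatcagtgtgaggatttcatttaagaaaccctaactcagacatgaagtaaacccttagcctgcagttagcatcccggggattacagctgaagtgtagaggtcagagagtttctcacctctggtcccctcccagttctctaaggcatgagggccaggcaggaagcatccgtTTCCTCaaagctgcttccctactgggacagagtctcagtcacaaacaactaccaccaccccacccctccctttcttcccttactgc
The Gpr183 promoter had a GC content of 35.3%, the lowest of the 6 members in the promoter table, and the Robo4 promoter 50.3%. Besides GAGGAA, the core of sites for GATA factors (letters AGATAA), of sites for RUNX factors (letters TGTGGT) and of sites for KLF factors (letters CCACCC) was searched on both strands. The Gpr183 window held none of these 4 motifs. The Robo4 window held 1 GAGGAA match, which began 36 bases before the start, and 2 overlapping matches of the KLF motif after it. Among the 6 members GAGGAA was found in 3 (Kit, Robo4 and Cd44), against 28.3% of 32851 promoters. The KLF motif was in 2 of the 6 against 31.5%, the GATA motif in 1 against 11.2% and the RUNX motif in 0 against 16.8%. The promoters of S1pr1, Esam and Selplg were not in the table.

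Gpr183 RNA was highest in old ad libitum HSCs, lower with lifelong CR, and between them after refeeding. Its level was 125, 119, 107 and 129.7 CPM in the 4 OAL libraries, 34.7, 36.3, 52.4 and 41.6 CPM in the 4 OCR libraries and 71.8 and 72.3 CPM in the 2 OCRRF libraries. No OCR library came near the lowest OAL library, and both refed libraries lay in the gap between the groups. In young mice it was 6.98, 6.78, 28.6 and 12.8 CPM in YAL, 4.73, 15.8, 10.4 and 7.44 CPM in YCR and 20.0, 28.8, 30.9 and 20.5 CPM in YCRRF. Every old library therefore exceeded every young one, while the young groups were all low and YAL replicate 3 reached into the range of the refed group. Ordered by mean, the 6 groups were OAL (120.2 ± 10.0 CPM, SD, n = 4), OCRRF (72.0 ± 0.323, n = 2), OCR (41.2 ± 8.0, n = 4), YCRRF (25.0 ± 5.61, n = 4), YAL (13.8 ± 10.3, n = 4) and YCR (9.59 ± 4.74, n = 4). The first 3 neighbouring pairs in that order did not overlap between libraries, and the last 2 did. Ubac2 had 126 ± 3.65 CPM in OAL, 106 ± 7.69 in OCR, 112 ± 2.09 in OCRRF and 133 ± 10.9 in YAL (SD), a span much narrower than that of Gpr183.

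**Figure D1:**
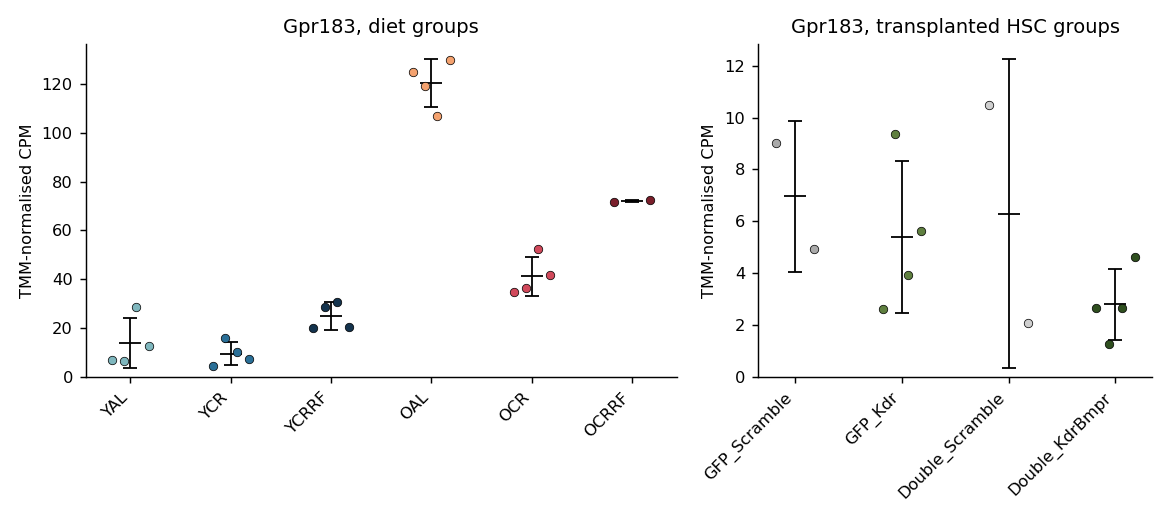
Gpr183 in TMM-normalised CPM (vertical axes, linear, separate scales) in the 6 diet groups (left) and the 4 groups of transplanted HSCs (right). Points are libraries, horizontal bars group means and error bars SD. The OAL libraries sit at 107 to 129.7 CPM and the OCR libraries at 34.7 to 52.4 CPM. The highest transplant library is at 10.5 CPM, in a set scaled separately and not compared with the diet groups.

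Scaled by exonic length, Gpr183 stood among the more abundant members in old ad libitum HSCs and among the least abundant in young ones. In OAL the mean level was 178 CPM per kilobase for Kit, 81.1 for Esam, 41.6 for Gpr183, 28.9 for S1pr1, 28.2 for Selplg, 15.7 for Cd44, 12.1 for Robo4, 10.0 for Cxcr4 and 2.91 for S1pr2. Gpr183 thus ranked 3 of 9 in OAL, 6 in OCR and 4 in OCRRF. In YAL Kit (169 CPM per kilobase) and Esam (88.4) again led, followed by Selplg (40.6), and Gpr183 (4.78) ranked 8 of 9, above only S1pr2 (2.89).

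Among the other chemoattractant receptors, S1pr1 (chr3:115710433-115715072, minus strand) shared the direction of Gpr183 in old HSCs and Cxcr4 and S1pr2 did not. S1pr1 was at 94.4, 82.2, 80.2 and 95.7 CPM in OAL, at 55.9, 56.4, 56.7 and 63.7 CPM in OCR and at 100.3 and 66.7 CPM in OCRRF. The OAL and OCR ranges were apart, and the 2 refed libraries differed from each other by more than the whole spread of the OCR group. Cxcr4 (chr1:128588199-128592293, minus strand) was at 15.6, 15.6, 23.2 and 18.2 CPM in OAL, 24.3, 14.4, 15.9 and 25.8 CPM in OCR and 21.0 and 15.4 CPM in OCRRF, so that the 3 groups overlapped. S1pr2 (chr9:20962361-20976781, minus strand) ranged from 15.4 to 36.7 CPM over the 22 diet libraries and its group means from 21.1 to 24.6 CPM, with every neighbouring pair of groups overlapping.

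Robo4 (chr9:37401897-37415115) and Esam (chr9:37528078-37538319) lie on the same strand of chromosome 9, with 112962 bases between them. Robo4 was at 62.5, 66.0, 67.6 and 60.2 CPM in OAL, 46.2, 45.8, 48.2 and 50.2 CPM in OCR and 73.5 and 50.0 CPM in OCRRF. OAL and OCR did not overlap, and the refed libraries fell 1 above and 1 below the OAL group. Esam was at 237, 233, 229.9 and 230.1 CPM in OAL, 228, 209, 181 and 215 CPM in OCR and 185 and 205 CPM in OCRRF. The highest OCR library was just under the lowest OAL library, and both refed libraries lay within the OCR range.

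Kit (chr5:75574916-75656722, plus strand) was by far the most abundant member, at 1624, 1873, 1435 and 1423 CPM in OAL, 1478, 1843, 1542 and 1787 CPM in OCR and 1261 and 1213 CPM in OCRRF. Both refed libraries were below all 8 other old libraries, while OAL and OCR overlapped. Selplg (chr5:113818536-113832644, minus strand) stood at 123, 121, 123 and 116 CPM in OAL, 126, 117, 106 and 106 CPM in OCR and 94.8 and 103 CPM in OCRRF, the refed libraries again being the lowest. Cd44 (chr2:102811141-102901665, minus strand, with the small nuclear RNA gene Gm23731 inside it) was at 99.8, 111, 105 and 110.5 CPM in OAL, 144, 125, 106 and 107 CPM in OCR and 92.2 and 93.5 CPM in OCRRF.

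**Figure D2:**
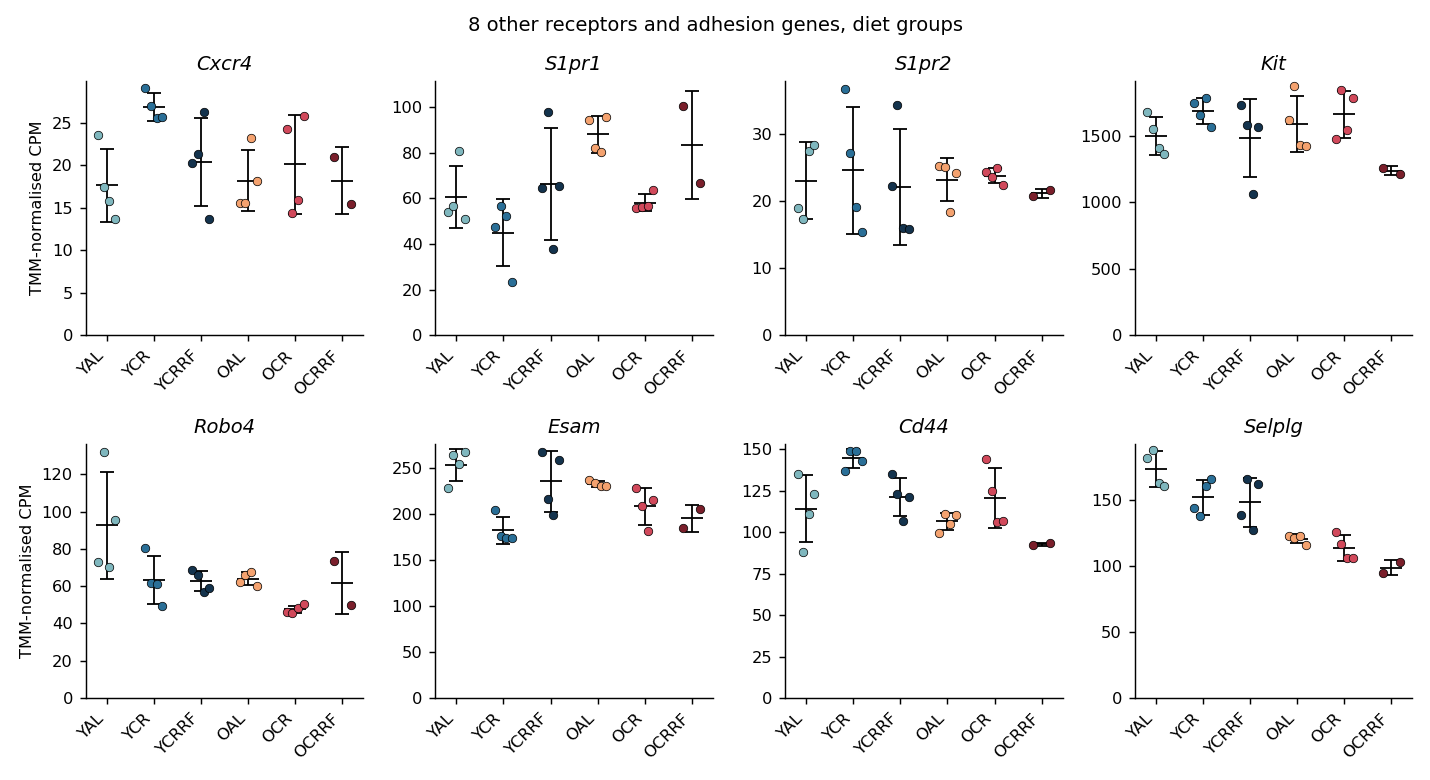
TMM-normalised CPM of the 8 members other than Gpr183 (1 panel each, vertical axes linear with their own scales) in the 6 diet groups. Points are libraries, horizontal bars means and error bars SD. OAL and OCR do not overlap for S1pr1, Robo4 and Esam, and the 2 OCRRF libraries are the lowest old libraries for Kit, at 1261 and 1213 CPM.

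In the contrast of lifelong restricted with ad libitum old HSCs, Gpr183, S1pr1 and Robo4 were lower and no member was higher past the threshold. The log2 fold changes of OCR against OAL were -1.53 for Gpr183 (SE 0.104), -0.58 for S1pr1 (SE 0.088) and -0.41 for Robo4 (SE 0.0837). The other 6 were at -0.14 for Esam, -0.07 for Selplg, 0.05 for S1pr2, 0.08 for Kit, 0.17 for Cxcr4 and 0.19 for Cd44. Thus 3 of 9 members were past the threshold, beside 5.57% of the 27150 genes tested (3.03% lower), and the groups did not overlap for these 3 and Esam, all lower, beside 7.12% of genes. Of all called genes 45.6% were higher, and 56.2% with scaling from genes of at least 5 CPM. With bulk RNA, fewer cells that express a gene and less RNA per cell cannot be told apart. In a single fit of all 6 diet groups, which shares 1 estimate of the spread, only Gpr183 of the 9 was past the threshold, and 212 genes were in place of 1511.

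Refeeding after lifelong CR was accompanied by higher Gpr183 and S1pr1 and lower Kit. OCRRF against OCR gave log2 fold changes of 0.75 for Gpr183 (SE 0.134), 0.47 for S1pr1 (SE 0.135) and -0.49 for Kit (SE 0.123). Robo4 stood at 0.32 (SE 0.136) and Cd44 at -0.44 (SE 0.131). The value of Gpr183 was 0.65 to 0.88 with any 1 library left out and that of Kit -0.56 to -0.40, while S1pr1 was at 0.10 without OCRRF replicate 1 and at 0.78 without OCRRF replicate 2. Robo4 likewise went from -0.03 to 0.62 between these 2 libraries. Gpr183, S1pr1 and Kit were the 3 of 9 members past the threshold, beside 3.41% of 32577 genes, 2 of them higher (0.694% of genes) and 1 lower (2.71%). With DESeq2, or with its size factors in edgeR, Cd44 took the place of S1pr1. The refed libraries lay wholly above OCR for 2 members (Gpr183 and S1pr1, beside 17.5% of genes) and wholly below for 4 (Kit, Cd44, Selplg and S1pr2, beside 10.8%). Of all called genes 20.4% were higher, and 37.3% with scaling from genes of at least 5 CPM. A fit with all 6 diet groups had 0 of the 9 and 64 of all genes past the threshold in place of 1110.

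Against the ad libitum level, refed old HSCs were lower for Gpr183, Kit, Selplg and Esam. The log2 fold changes of OCRRF against OAL were -0.75 (SE 0.0861), -0.37 (SE 0.09), -0.30 (SE 0.0725) and -0.27 (SE 0.0678) in that order. In OCR against OAL the values of these 4 were -1.53, 0.08, -0.07 and -0.14 in the same order. S1pr1 (-0.09, SE 0.122) and Robo4 (-0.06, SE 0.115), both lower in OCR, were near the OAL level by mean. With 1 library left out they ran from -0.43 to 0.17 and from -0.39 to 0.18. The 4 lower members stood beside 4.14% of 31816 genes called in either direction and 2.48% called lower. With Cd44 added, 5 members lay wholly below OAL, as did 15.8% of genes. The median log2 fold change over all genes was 0.122, and it rose to 0.265 when the scaling factors came from genes of at least 5 CPM, with which 93.3% of 808 called genes were higher, in place of 40.1% of 1316. In that setting Gpr183 stood at -0.61, Kit at -0.23, Selplg at -0.15 and Esam at -0.12, and Gpr183 alone of the 9 was past the threshold. With 1 library left out 38 to 385 genes were called in all and 1 to 2 members, Gpr183 each time and Kit without OAL replicate 4. The values themselves then ran from -0.77 to -0.68 for Gpr183, -0.42 to -0.26 for Kit, -0.36 to -0.25 for Selplg and -0.34 to -0.21 for Esam.

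Old and young ad libitum HSCs differed most in Gpr183. OAL against YAL gave 3.11 for Gpr183 (SE 0.397) and 0.55 for S1pr1 (SE 0.14), and -0.51 for Selplg (SE 0.0704), whose YAL libraries stood at 182, 188, 163 and 161 CPM. These 3 of 9 members were past the threshold, beside 14.8% of 23525 genes, 2 higher (6.89% of genes) and 1 lower (7.93%). Of all called genes 46.5% were higher, and 70.5% with scaling from genes of at least 5 CPM. The groups did not overlap for Gpr183, which was higher (15.3% of genes), and for Robo4 and Selplg, which were lower (12.3%). Robo4 was at 72.8, 132, 70.1 and 95.5 CPM in YAL, all above the OAL libraries, with a log2 fold change of -0.52 (SE 0.173). With 1 library left out Gpr183 stood at 2.86 to 3.78, S1pr1 at 0.47 to 0.71 and Robo4 at -0.64 to -0.31. Robo4 joined the 3 with DESeq2, with no filter on low counts and without YAL replicate 1 or 3, it replaced S1pr1 in the fit of all groups, and S1pr1 dropped out without any 1 OAL library. The 4 contrasts of old HSCs use the same OAL, OCR and OCRRF libraries in turn and are not independent of each other.

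**Figure D3:**
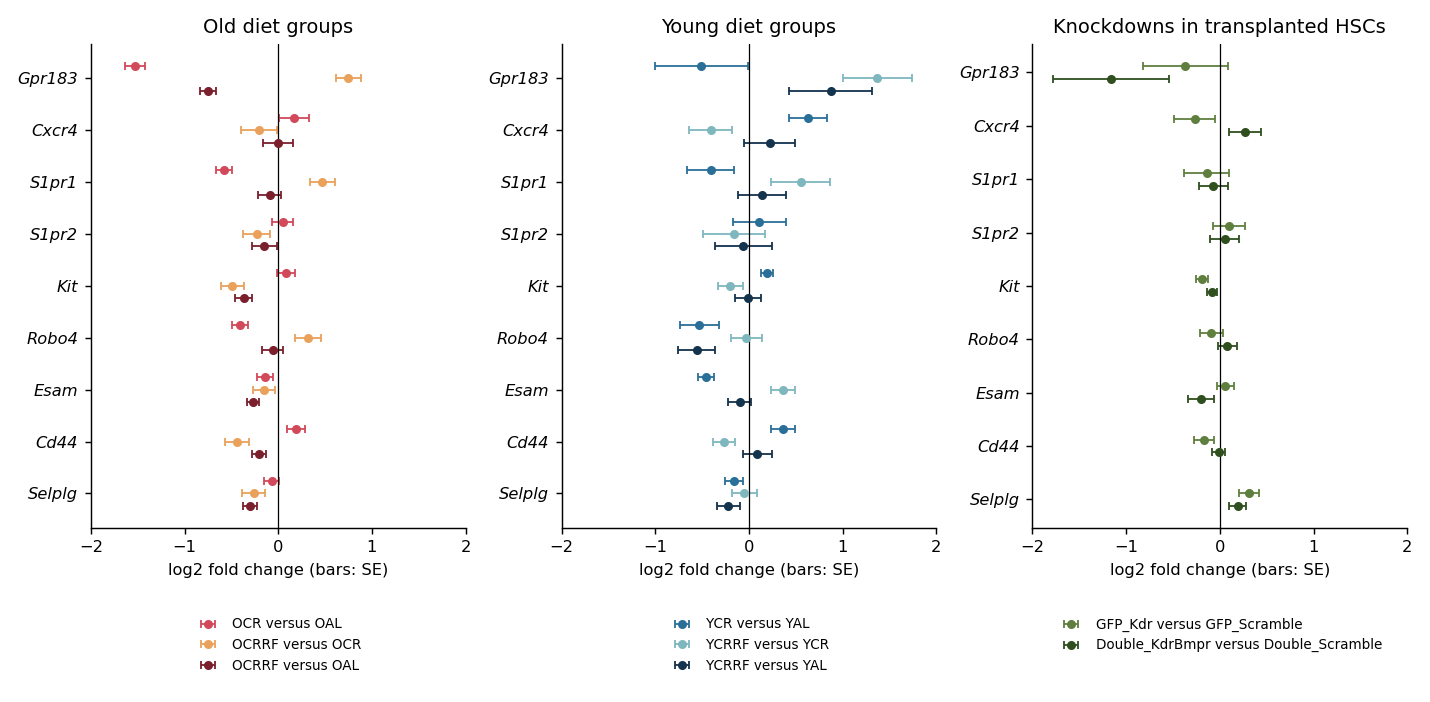
Log2 fold changes of the 9 members (horizontal axes, error bars 1 SE) in the diet contrasts and the knockdown contrasts. Colours mark the contrasts. In OCR against OAL, Gpr183 (-1.53), S1pr1 (-0.58) and Robo4 (-0.41) lie farthest to the left, and in the young and knockdown contrasts no member was called.

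Short-term CR in young mice, in libraries other than those of OCR against OAL, called none of the 9. In edgeR 0 of 9 members passed the threshold in YCR against YAL, beside 0.257% (48) of 18680 genes, while 5 of the 9 and 1735 of all genes had an unadjusted p below 0.05, and DESeq2 called 2 members and 511 genes. The member nearest the threshold was Esam, an adhesion protein of the junctional molecule family. Esam was at 228, 264, 254 and 267 CPM in YAL and at 204, 176, 174 and 174 CPM in YCR, so every restricted library lay below every control. Its log2 fold change was -0.46 (SE 0.0839, edgeR adjusted p = 0.0509). That adjusted p ranged from 0.000451 to 0.22 over the other settings and from 0.0631 to 0.198 when 1 library was left out. The old contrast gave the value -0.14 stated above, and whether the effect of CR on Esam differed between ages was not tested.

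Cxcr4 was higher and Robo4 lower by value in young restricted HSCs, neither passing the test. Cxcr4 was at 23.6, 17.4, 15.8 and 13.7 CPM in YAL and at 29.1, 26.9, 25.6 and 25.7 CPM in YCR, with no overlap, at 0.63 on the log2 scale (SE 0.204, edgeR adjusted p = 0.335, 0.043 to 0.418 over the other settings). Robo4 was at 80.4, 61.7, 61.1 and 49.2 CPM in YCR, within reach of the lowest YAL libraries, at -0.53 (SE 0.208, edgeR adjusted p = 0.439, 0.0319 to 0.563 over the other settings). Cd44 was at 135, 88.0, 111 and 123 CPM in YAL and 137, 149, 149 and 143 CPM in YCR, at 0.36 on the log2 scale (SE 0.129, edgeR adjusted p = 0.384, 0.177 to 0.503 over the other settings). Groups did not overlap for 2 members that were higher (Cxcr4 and Cd44, beside 2.49% of genes) and 1 that was lower (Esam, beside 3.83%). Gpr183 had a log2 fold change of -0.51 with an SE of 0.498, which turned to 0.13 without YAL replicate 3, the library at 28.6 CPM. No direction of Gpr183 with short-term CR was detectable with this spread.

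Summed over 8 endothelial markers, the level was lower in YCR than in YAL and YCRRF libraries, as that of Esam was by value. The sum was 71.2 to 92.1 CPM in YAL, 32.8 to 61.8 CPM in YCR and 75.8 to 97.7 CPM in YCRRF, and in old mice 87.3 to 126 CPM in OAL, 69.1 to 131 CPM in OCR and 95.9 to 119 CPM in OCRRF. Of the 8, Cdh5 (VE-cadherin) was at 0 in 13 of 34 libraries and reached 1.26 CPM at most, Mmrn2 2.68 CPM and Plvap 3.59 CPM. Stab2 reached 9.61, Ptprb 13.3, Clec14a 33.1, Sox18 36.8 and Cldn5 90.8 CPM, and Stab2, Clec14a and Sox18 were above 0 in all 34. The part of these transcripts in the values of Esam and Robo4 was not tested.

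Refeeding of young mice raised no member past the threshold either. In YCRRF against YCR 0 of 9 members were called, beside 0.0102% (2) of 19535 genes, 3 members and 1420 genes had an unadjusted p below 0.05, and DESeq2 called 1 member and 355 genes. Gpr183 had the highest value, as all 4 refed libraries (20.0 to 30.9 CPM) exceeded the restricted ones (4.73 to 15.8 CPM). Its log2 fold change was 1.37 (SE 0.371, edgeR adjusted p = 0.331, 0.0114 to 0.422 over the other settings). Gpr183 was the 1 member of which the refed group lay wholly above, beside 2.99% of genes, and Cd44, at 135, 123, 107 and 121 CPM after refeeding, the 1 that lay wholly below, beside 2.53%. Esam was at 267, 216, 199 and 259 CPM in YCRRF, at 0.36 on the log2 scale (SE 0.126, edgeR adjusted p = 0.52). Compared with YAL, YCRRF gave 0 of 9 members and 0% of 19334 genes called, with 1 member and 714 genes at an unadjusted p below 0.05 and 0 members and 52 genes called by DESeq2. The member was Robo4, at 68.4, 66.2, 57.1 and 58.9 CPM, below all YAL libraries as were 1.94% of genes (log2 fold change -0.56, SE 0.199, edgeR adjusted p = 0.995). The 3 young contrasts share libraries pairwise, so the lower Esam of YCR enters both of its contrasts.

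Knockdown of Kdr, the receptor for vascular endothelial growth factor, was checked first. Kdr was at 6.04 and 6.07 CPM in GFP_Scramble and at 1.93, 2.21, 3.28 and 2.03 CPM in GFP_Kdr, and at 3.98 and 4.63 CPM in Double_Scramble against 1.24, 0.556, 1.60 and 1.35 CPM in Double_KdrBmpr. Both knockdown groups lay wholly below their scrambles (log2 fold changes -1.35, SE 0.251, and -1.86, SE 0.373), though with edgeR adjusted p of 0.247 and 0.272. Bmpr1a, a receptor for bone morphogenetic proteins, was at 5.21 and 4.43 CPM in Double_Scramble and at 4.44, 0.657, 2.22 and 0.595 CPM in Double_KdrBmpr, so the library labelled replicate 1 of the combined knockdown lay within the scramble range.

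None of the 9 members was called in either knockdown. In GFP_Kdr against GFP_Scramble 0 of 9 were called, beside 0.0149% (3) of 20098 genes, 2 members and 1789 genes had an unadjusted p below 0.05, and DESeq2 called 0 members and 261 genes. Selplg was at 201, 229, 191 and 240 CPM in GFP_Kdr and 182 and 164 CPM in its scramble (log2 fold change 0.31, SE 0.105, edgeR adjusted p = 0.442). It was the 1 member past an unadjusted p of 0.05 and the fold threshold of 1.2, beside 6.76% of genes. Kit was at 1501, 1399, 1534 and 1381 CPM against 1664 and 1654 CPM (-0.19, SE 0.0606, edgeR adjusted p = 0.415). Gaps of this kind were common with 2 scramble libraries: groups did not overlap, with the knockdown higher, for 10.6% of genes, and lower for 11.3%.

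In Double_KdrBmpr against Double_Scramble 0 of 9 members were called, beside 0.00498% (1) of 20072 genes, 0 members and 1977 genes had an unadjusted p below 0.05, and DESeq2 called 0 members and 332 genes. Gpr183 was at 2.67, 1.29, 2.65 and 4.63 CPM against 10.5 and 2.09 CPM, at -1.16 on the log2 scale (SE 0.622, edgeR adjusted p = 0.588), which became 0.42 without Double_Scramble replicate 1. With the Kdr hairpin alone it was at 2.64, 9.37, 3.92 and 5.64 CPM against 9.03 and 4.92 CPM, at -0.37 (SE 0.454, edgeR adjusted p = 0.839) and at 0.14 without GFP_Scramble replicate 1. In each set the direction of Gpr183 therefore hung on 1 of 2 scramble libraries. Selplg was again higher by value, at 215, 206, 201 and 253 CPM against 197 and 185 CPM (0.19, SE 0.0938, edgeR adjusted p = 0.554). With Cxcr4 it was 1 of 2 members wholly above the scramble, beside 10.5% of genes. The difference between the combined and the single knockdown effect was called for 0 of 9 members and 0% of 21250 genes, with 0 members and 760 genes at an unadjusted p below 0.05 and 0 members and 3 genes called by DESeq2. The largest difference of a member in size was -0.79 for Gpr183 (SE 0.885, edgeR adjusted p = 1.0).

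Around the members, 94 genes of the same pathways were examined in 6 lists, chosen with earlier results of these data known. The genes named are those called with the largest fold changes, so their adjusted p is a description and no test of the lists. In OCR against OAL 4 of the 93 tested were called higher and 7 lower, beside the 5.57% of all genes called in either direction. Hmmr, a hyaluronan receptor that is also a mitotic spindle protein, was at 22.4 ± 3.25 CPM in OCR and 7.27 ± 0.917 in OAL (SD, n = 4 each, log2 fold change 1.64, edgeR adjusted p = 2.99e-09), and Mfsd2b, which exports sphingosine-1-phosphate from erythroid cells and platelets, at 21.7 ± 4.8 and 8.22 ± 2.77 CPM (1.42, edgeR adjusted p = 2.09e-06). Itgb2, the shared chain of leukocyte integrins, rose from 42.9 ± 11.8 to 61.8 ± 9.46 CPM (0.54, edgeR adjusted p = 0.0104). Jam2, a junctional adhesion molecule, was at 64.6 ± 5.82 CPM in OCR and 109 ± 18.2 in OAL (-0.73, edgeR adjusted p = 1.07e-05). St3gal6, a sialyltransferase of selectin ligands, had -0.55 (edgeR adjusted p = 0.000415) and Rgs1, a regulator of G protein signalling, -0.54 (edgeR adjusted p = 0.0184).

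By list, the oxysterol and G protein list had 0 of 16 genes higher and 2 lower in OCR, the S1P list 1 and 1 of 14, the CXCL12 list 0 and 0 of 15, the KIT list 0 and 1 of 12, the endothelial-type adhesion list 0 and 2 of 16 and the selectin and hyaluronan list 3 and 1 of 20. The medians of their log2 fold changes lay between -0.18 and 0.07, beside 0.023 for all genes. After refeeding, OCRRF against OCR called 2 of 93 higher and 5 lower, beside 3.41% of all genes. Jam2 returned to 115 ± 6.27 CPM (0.77, edgeR adjusted p = 2.93e-05), Hmmr to 8.81 ± 0.436 CPM (-1.40, edgeR adjusted p = 9.08e-07) and Mfsd2b to 9.09 ± 0.575 CPM (-1.32, edgeR adjusted p = 7.95e-06). Cd74, a receptor of the cytokine MIF, had 0.49 (edgeR adjusted p = 0.0347), and Grb2, an adaptor of receptor tyrosine kinases, -0.56 (edgeR adjusted p = 0.00623).

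OCRRF against OAL called 1 of 93 pathway genes higher and 13 lower, beside 4.14% of all genes and in the contrast whose split turned with the scaling. It called Rgs18 (-0.54, edgeR adjusted p = 0.00276), Dpp4, the peptidase that cleaves CXCL12 (-0.43, edgeR adjusted p = 0.0276) and Rgs14 (-0.42, edgeR adjusted p = 0.0314) lower. OAL against YAL called 9 of 92 higher and 13 lower, beside 14.8% of all genes. Itgal was at 7.7 ± 1.44 CPM in OAL and 3.08 ± 1.95 in YAL (1.33, edgeR adjusted p = 0.0416). The adhesion molecule Alcam was at 149 ± 27.2 and 73.9 ± 17.3 CPM (1.02, edgeR adjusted p = 0.00433). Jam2 was at 109 ± 18.2 and 55.7 ± 10.5 CPM (0.97, edgeR adjusted p = 0.00279). Among genes called lower, Cd69 of the S1P list had -1.2 (edgeR adjusted p = 0.0402), at 3.72 ± 1.08 CPM in OAL and 8.64 ± 3.3 in YAL. Flt3, the cytokine receptor whose protein (Flk2) was sorted against, had -0.91 (edgeR adjusted p = 0.0145) and Jam3 -0.77 (edgeR adjusted p = 0.0141). In the young contrasts 0 of 85 or 86 pathway genes were called. With the Kdr hairpin alone 1 of 87 was, Cd74 at 205 ± 22.2 CPM against 506 ± 71.6 in its scramble (SD, n = 4 and 2, log2 fold change -1.30, edgeR adjusted p = 0.0114), and with the combined knockdown 0 of 88.

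The genes whose levels followed Gpr183 most closely within the old and within the young diet libraries were Cysltr2, Mllt3, Hspb6, Gstm1 and Mboat2. Likeness was the lesser of 2 Pearson r of log2 CPM with Gpr183, over the 10 old and over the 12 young libraries, among 11986 genes of at least 5 CPM in both sets. Cysltr2, a leukotriene receptor, had r of 0.855 in old and 0.802 in young libraries, Mllt3, a chromatin reader that supports HSC maintenance, 0.847 and 0.793, and Mboat2, an acyltransferase, 0.936 and 0.771. These libraries share diet groups and preparation, so r describes a pattern and has no p. Cysltr2 stood at 98.3 ± 13.9 CPM in OAL, 66.7 ± 7.78 in OCR, 88.0 ± 7.72 in OCRRF and 37.1 ± 12.5 in YAL (SD). Because r was taken within each age, the age difference of Gpr183 played no part in it. Mllt3 was at 322 CPM in OAL and 358.6 in YAL, Hspb6 at 13.15 and 19.43, and Gstm1 at 395.4 and 377.5. Mboat2 was at 67.03 and 54.42 CPM. Hspb6 stood at 9.455 CPM in OCR and 9.851 in OCRRF. Of the members S1pr1 came closest, at rank 407 with r of 0.842 in old and 0.478 in young libraries, and Robo4 had 0.781 in old and -0.37 in young ones.

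Chromatin was measured in old HSCs only. Accessibility by ATAC-seq was compared between 2 OCRRF and 4 OCR libraries of 15721335 to 19558148 reads in consensus peaks, in which 90 peaks had a member as the nearest start site within 50 kb and 83 were tested. A call needed an adjusted p below 0.05 in a peak that changed over 1.5-fold and whose log2 CPM averaged more than 1.5, and 0 of 83 peaks were called, beside 0.221% (273) of 123372 peaks, while 11 of the 83 and 14437 of all peaks had an unadjusted p below 0.05. The median log2 fold change of the 83 was -0.08, with 35 higher and 48 lower. All 9 members had a peak at their promoter.

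The peak with the smallest adjusted p lay within Gpr183 (chr14:121954913-121955792), 9840 bases downstream of its start site. Its accessibility was 11.38, 11.79, 14.43 and 13.38 CPM in OCR and 16.55 and 18.03 CPM in OCRRF. The log2 fold change was 0.44 (SE 0.127, edgeR adjusted p = 0.101). Of the 12 Gpr183 peaks 8 were higher and 4 lower by value, with a median of 0.09. The promoter peak of S1pr1 (chr3:115714500-115715750) was at 54.43, 58.46, 63.02 and 63.16 CPM in OCR and 70.72 and 65.22 CPM in OCRRF (0.19, SE 0.07, edgeR adjusted p = 0.248). Its 15 tested peaks were divided, 5 higher and 10 lower, and those of Cd44 were mostly lower by value (14 of 16, median -0.26, smallest edgeR adjusted p = 0.265).

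**Figure D4:**
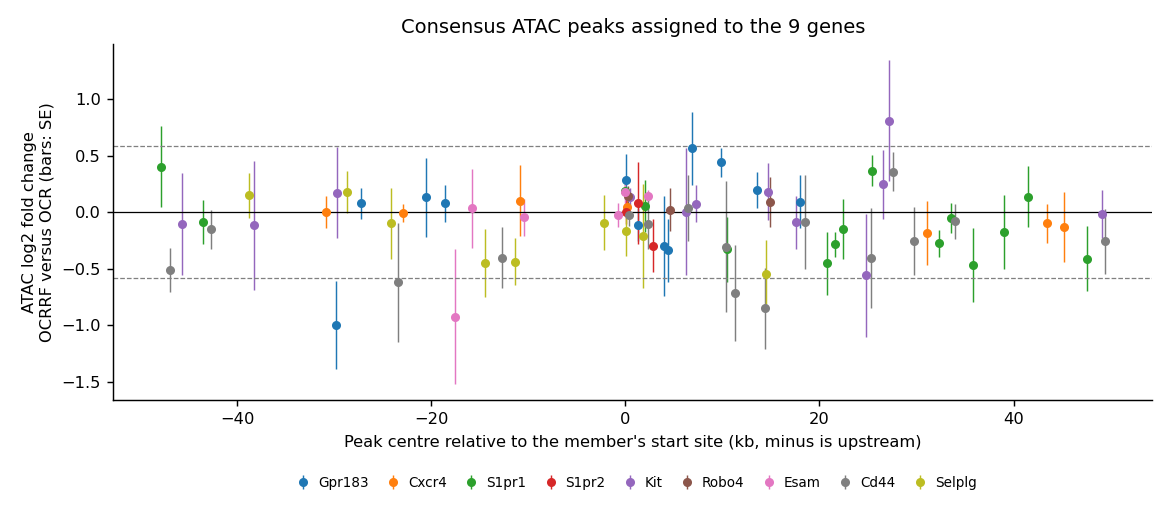
Log2 fold change of accessibility, OCRRF against OCR (vertical axis), of the peaks nearest each member against the distance of the peak from its start site in kb (horizontal axis). Each point is a peak, error bars are SE and dashed lines mark the 1.5-fold threshold. No peak was called, and the Gpr183 peak 9.84 kb downstream of the start stands at 0.44.

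The histone marks at the start sites, measured in 2 OCR libraries each, ran from mid-range to high for H3K4me3 and were low for H3K27me3. H3K4me3, a mark of active promoters, is given as the mean over a window of 750 bp in the authors' scaled signal, and it ranged from 13.69 at Gpr183 to 51.75 at Kit. Gpr183 (53.4) and Selplg (14.01 signal, 53.7) were nearest the middle by percentile of 25127 genes, whereas Kit (99.5), Cxcr4 (44.46 signal, 96.8) and S1pr2 (39.03 signal, 91.3) were near the top. The 2 libraries gave 13.77 and 13.62 at Gpr183, and 20.26 and 22.1 at Robo4. H3K27me3, the polycomb mark of silenced genes, lay between 0.1065 at Cxcr4 and 0.207 at Esam over windows of 2000 bp, below the all-gene median of 0.3225 in every member. Its replicates differed widely, by as much as 0.1214 and 0.2927 at Esam, so the order of members on this mark is within the spread of the libraries.

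**Figure D5:**
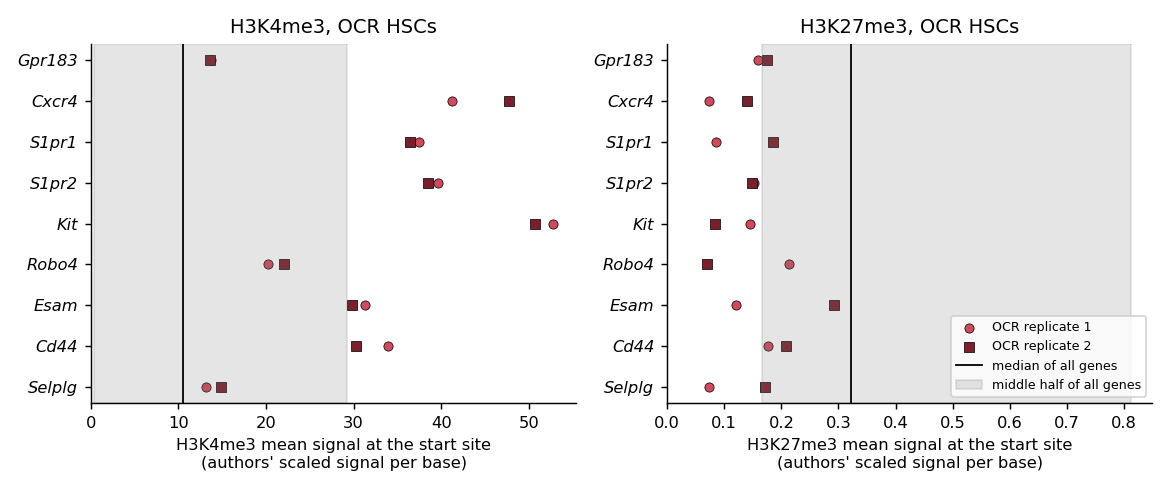
Mean H3K4me3 (left) and H3K27me3 (right) signal at the start site of each member in 2 OCR libraries (circles, replicate 1, squares, replicate 2), in the authors' scaled signal per base. The line is the median of all genes and the band runs from the lower to the upper quartile. H3K4me3 runs from 13.69 (Gpr183) to 51.75 (Kit) in the mean of both libraries, and H3K27me3 is below the median in all members.

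Peaks of PU.1, a transcription factor of the ETS family, were called by the authors in each of 6 libraries of old HSCs, 2 OAL (titled OWT), 2 OCR and 2 OCRRF, which held 2262 to 5464 peaks. They fell at 4 sites within 50 kb of a member and nearest to it, 2 for S1pr1, 1 for Esam and 1 for Selplg. The other 6 members, Gpr183 among them, had no called peak, which at these peak numbers does not show that PU.1 was absent. The sequences of 3 sites, 121 bases around the median summit on the plus strand of GRCm38.p6, are shown for Esam, whose site had the highest fold enrichment, and for S1pr1, whose sites held the PU.1 core letters. Capitals mark GAGGAA.
Esam site (chr9:37530209-37530329): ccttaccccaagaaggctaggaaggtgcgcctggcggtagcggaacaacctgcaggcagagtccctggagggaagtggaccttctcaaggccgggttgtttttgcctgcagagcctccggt
S1pr1 distal site (chr3:115682456-115682576): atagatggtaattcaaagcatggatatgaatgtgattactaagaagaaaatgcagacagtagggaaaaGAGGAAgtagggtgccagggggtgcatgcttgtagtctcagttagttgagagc
S1pr1 proximal site (chr3:115689326-115689446): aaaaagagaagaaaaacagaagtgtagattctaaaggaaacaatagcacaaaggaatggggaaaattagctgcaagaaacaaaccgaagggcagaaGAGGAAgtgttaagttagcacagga
GAGGAA occurred in both S1pr1 sites and not in the Esam or Selplg site, beside 55.4% of 20204 summit windows of all PU.1 peaks. Those windows had the same length but were centred on the summit in each library, so a recurrent site counts more than once. The member sites were merged over libraries, and the summits at the Esam site spanned 91 bases, so the comparison is loose.

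The Esam site, 2168 to 2200 bases downstream of the start, was called in 5 of 6 libraries with a fold enrichment of 6.53 to 11.05, the highest in OAL replicate 2, and it was missing from OCRRF replicate 1. It lay in an accessible peak of 107.8 ± 5.57 CPM in OCR (SD, n = 4) and 119 ± 2.72 in OCRRF (n = 2, log2 fold change 0.14, SE 0.057, edgeR adjusted p = 0.288). The Selplg site, about 11.5 kb upstream of the start, was called in 5 of 6 libraries (5.66 to 9.08) and was missing from OCRRF replicate 2. The distal S1pr1 site was called in 4 of 6 libraries (6.49 to 7.11) and the proximal one in 2 of 6 (6.36 to 7.63). The accessible peaks over them went in opposite directions by value with refeeding, from 17.99 ± 1.29 to 14.86 ± 1.76 CPM at the distal site (-0.28, SE 0.12, edgeR adjusted p = 0.345) and from 10.66 ± 0.266 to 13.76 ± 0.214 CPM at the proximal one (0.37, SE 0.135, edgeR adjusted p = 0.237). As each library was called separately, a missing peak says only that it did not pass the caller there. Both OCR libraries called the same 3 sites, the 2 OAL libraries differed at both S1pr1 sites, and the 2 OCRRF libraries shared none of the 4. At the Esam site the enrichment was 8.52 and 11.05 in OAL, 6.53 and 7.56 in OCR and 6.53 in OCRRF replicate 2.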

How the data were processed

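RNA-seq, ATAC-seq and ChIP-seq of mouse HSCs were analysed from the deposited tables. Per the labels and the study's methods, the authors trimmed the RNA reads with trim galore and cutadapt, aligned them with STAR to mm10 and deposited raw counts per GENCODE gene from featureCounts. ATAC reads were aligned with BWA and deposited as counts in consensus peaks. Histone files held signal in bins, scaled by the authors to a common read number, and PU.1 files held MACS2 peaks per library with a score, fold enrichment, −log10 p-values and −log10 q-values given by the authors. Differences were tested with edgeR 4.0.16 in R 4.3.3 (filterByExpr, TMM, quasi-likelihood test, fits of the groups compared alone), and DESeq2 1.42.0 was an alternative. The edgeR fit was also run on simulated counts, and what it recovered there is not given here. Genes tested numbered 18680 to 32577 per comparison. The members, pathway lists and marker lists were chosen with earlier results of these data known. The named genes were all 9 members, up to 3 called pathway genes per direction and comparison (largest fold change, at least 5 CPM), and the 5 genes most like Gpr183. Replicate pairs differed by more than counting noise (chi-square per degree of freedom of at least 8.174 in RNA and 2.297 in ATAC). Pairs with YCRRF replicate 3 gave 335.955, 238.374 and 153.047, and the other YCRRF pairs 28.412 to 56.364, so this library stood apart from its group. The replicate numbers of the labels were not read as a pairing of libraries. Promoter sequences are RefSeq's on GRCm38.p6, which is the mm10 build, and 6 of 9 members matched. ATAC-seq and histone samples of OAL mice, 8 in all, were not analysed here.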

Additional observations from a re-analysis of the deposited data

Results flagged for a closer look

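In 63 groups of 4 libraries, 3 held 1 library far from the others by Dixon's test at the 95% level, where chance gives about 1 in 20. S1pr1 was at 63.7 CPM in OCR replicate 4 and at 55.9 to 56.7 CPM in the other OCR libraries, on the side of the OAL level. S1pr2, the sphingosine-1-phosphate receptor that varied little with diet, was at 18.4 CPM in OAL replicate 3 and at 24.2 to 25.2 CPM in the others. Esam was at 204 CPM in YCR replicate 1 and at 174 to 176 CPM in the others, so that without this library the restricted young group lay further below its control.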

How the results depend on the processing

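Counts of called members moved by over 1.5 times, or from 0, in these cases. In YCR against YAL, 0 became 2 with DESeq2 (Cxcr4 and Esam), 2 with no filter on low counts (Robo4 and Esam), 1 with at least 10 counts in every library and 1 in a single fit of all diet groups (Esam both times). In YCRRF against YCR, 0 became 1 (Gpr183) with DESeq2, with no filter and in the single fit. In GFP_Kdr, 1 (Selplg) passed an unadjusted p below 0.05 with a fold above 1.2, as did 6.76% of genes. The single fit left 1 in OCR against OAL, 0 in OCRRF against OCR and 0 in OCRRF against OAL, and in the last 1 was called with scaling from genes of at least 5 CPM and 2 with at least 10 counts. PU.1 sites fell from 4 to 1 within 10 kb. Leaving out 1 library gave 1 to 4 calls in OCRRF against OCR, 1 to 2 in OCRRF against OAL, 2 to 4 in OAL against YAL, 3 in OCR against OAL and 0 elsewhere. The cause was not tested.

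Smaller moves were 3 to 4 in OAL against YAL (DESeq2, no filter; Robo4 added), 4 to 5 in OCRRF against OAL (DESeq2 and its size factors; Cd44 added) and 3 to 4 in OCRRF against OCR (no filter; Cd44 added), where DESeq2 and its size factors kept 3 with Cd44 in place of S1pr1.

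Over all genes, DESeq2 called 511 in place of 48 in YCR against YAL, 355 in place of 2 in YCRRF against YCR, 52 in place of 0 in YCRRF against YAL, 261 in place of 3 in GFP_Kdr, 332 in place of 1 in Double_KdrBmpr, 2349 in place of 1110 in OCRRF against OCR, 4503 in place of 1316 in OCRRF against OAL and 7895 in place of 3486 in OAL against YAL. With no filter these counts were 368, 275, 40, 82 and 19 in the young and knockdown contrasts, 2684 in OCRRF against OAL and 6671 in OAL against YAL. The single fit gave 201, 538, 9, 0 and 15, and 212 in place of 1511 in OCR against OAL, 64 in OCRRF against OCR and 0 in OCRRF against OAL. In OCRRF against OAL, scaling from genes of at least 5 CPM gave 808 calls and DESeq2 size factors 3215. At least 10 counts gave 98 in YCR against YAL and 1852 in OAL against YAL.

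Same-numbered libraries had r of -0.147 to 0.147 over 30 pairs, and 10 of 32 libraries matched their own number best, so the numbers were not read as a pairing. Where a group had 2 libraries (OCRRF and both scrambles) the deviations from the mean mirror each other. Such r cannot decide whether libraries were paired. With the replicate number as a block, 5 members were called in OCRRF against OCR and 3437 genes in place of 1110, and no other member count moved by over 1.5 times. The block gave 2080 genes in OCRRF against OAL, 1651 in OAL against YAL, 7 in YCR against YAL and 26 in GFP_Kdr.

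Direction changed with 1 library left out for members that had not been called, with these ranges of the log2 fold change. YCR against YAL gave -0.87 to 0.13 for Gpr183 and -0.14 to 0.28 for S1pr2. YCRRF against YCR gave -0.46 to 0.08 for S1pr2, -0.12 to 0.10 for Robo4 and -0.11 to 0.02 for Selplg. YCRRF against YAL gave -0.11 to 0.33 for S1pr1, -0.35 to 0.07 for S1pr2, -0.09 to 0.12 for Kit and -0.02 to 0.18 for Cd44. GFP_Kdr gave -0.78 to 0.14 for Gpr183, -0.04 to 0.26 for S1pr2 and -0.21 to 0.05 for Robo4. Double_KdrBmpr gave -1.89 to 0.42 for Gpr183, -0.17 to 0.04 for S1pr1, -0.04 to 0.14 for S1pr2 and -0.05 to 0.03 for Cd44. The combined minus the single knockdown effect gave -1.52 to 0.79 for Gpr183, -0.07 to 0.25 for S1pr1 and -0.20 to 0.09 for S1pr2. OCR against OAL gave -0.05 to 0.11 for S1pr2. OCRRF against OCR gave -0.48 to 0.06 for Cxcr4 and -0.03 to 0.62 for Robo4. OCRRF against OAL gave -0.26 to 0.20 for Cxcr4, -0.43 to 0.17 for S1pr1 and -0.39 to 0.18 for Robo4. OAL against YAL gave -0.09 to 0.22 for Cxcr4 and -0.11 to 0.13 for S1pr2. The knockdown results are limited by 2 scramble libraries per set, and those of OCRRF by 2 refed libraries. Gpr183 had 51 to 398 counts in the transplant libraries, and the part of low counts in its spread was not tested.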
